A study of Mus musculus with 6 samples.

Results

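The complement system was followed here through 9 genes, C1qa, C1qb, C1qc, C2, C3, C4b, Cfb, Serping1 and C3ar1, chosen by name as components of the classical and alternative pathways. All 9 were among the 26012 genes of the expression table and all 9 passed the filter of a mean normalized count of at least 1, which left 21126 genes for testing. The RNA came from fresh ventricular tissue of 6 male C57BL/6 mice, 8 weeks old at surgery, collected 4 days after myocardial infarction (MI). In all 6 mice the left anterior descending coronary artery was ligated and 10 μg of microRNA mimic was injected into the heart. In 3 mice the mimic was a control, and in the other 3 it was a mixture of miR-19a and miR-19b mimics, here called miR-19a/19b mimic. Such a mimic is a synthetic duplex that acts as the mature microRNA. The question was whether miR-19a/19b mimics change transcript levels in the infarcted heart. No uninjured or sham heart was in the series, so a response to MI itself was not measured, and each library mixes RNA from all the cells of the ventricle. In such a mixture, fewer cells of a type and less RNA per cell cannot be told apart.

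Complement is a set of proteins that tags damaged cells and microbes for removal. In the classical pathway, C1q, built from the chains A, B and C, binds antibody or altered surfaces and starts a cascade of proteases that cleaves C4 and C2 and then C3. In the alternative pathway, factor B (Cfb) joins deposited C3b and amplifies the cleavage. C1 inhibitor, encoded by Serping1, blocks the proteases of C1. The fragment C3a signals to cells through its receptor C3ar1. In tissues, C1q is made mainly by macrophages, C3 and C4 by hepatocytes and by many local cells, and dead heart muscle is a known site of complement deposition.

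The injected microRNAs are shown first, since the comparison rests on them. The mature sequences, from RefSeq, lie in GRCm38.p6 at chr14:115044048-115044070 for miR-19a-3p and at chr14:115044358-115044380 for miR-19b-3p, both on the plus strand, with a further copy of miR-19b-3p at chrX:52741991-52742013 on the minus strand. Capitals mark the seed, bases 2 to 8, which is the same in both.
miR-19a-3p: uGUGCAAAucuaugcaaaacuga
miR-19b-3p: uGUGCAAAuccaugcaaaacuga
A seed match in a transcript is the 8-mer TTTGCACA or one of the 7-mers TTTGCAC and TTGCACA, searched on the transcript strand of annotated 3′ UTRs. Of the 9 complement genes, 0 held a match in the longest annotated 3′ UTR, against 18.4% of the 15820 tested genes with such a UTR. The UTRs searched were short, with lengths of 43 bases in C3, 106 in C4b, 160 in C1qb, 195 in Cfb, 237 in C1qa, 239 in C1qc, 254 in C2, 522 in Serping1 and 2685 in C3ar1, where the median of all genes was 1103.5. The absence of these letters says nothing about other routes by which a microRNA could act.

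The libraries held between 19398196 and 23645308 reads on genes, and the values are normalized counts, that is, reads on a gene after division by the size factor of the library, which was 0.905 to 1.16. MiR-19a/19b mimic replicate 3 stood apart from the rest of its group. Its summed counts of 10 cardiomyocyte markers were 331314, against 957108 and 845280 in replicates 1 and 2 of the group and 544529 to 696758 in the control mimic hearts. Its chi-square per degree of freedom against those hearts was 123 and 110, where the other pairs within a group gave 9.49 to 24.4. The values of the complement genes apart from Cfb are given with and without this heart, as are counts of the lists below and the values of some other genes. It was singled out after its values were seen, so the results without it are descriptions. Mature miR-19 is not measured in these poly(A)-selected libraries, so the level of the mimics in these 6 hearts could not be checked from the libraries.

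None of the complement genes passed the test between the groups. With limma over 21126 genes, adjusted p-values of the 9 were all 0.9996, and the smallest unadjusted p was 0.19, for C3ar1. Across all genes, 0 had an adjusted p under 0.05 (0% of those tested), the smallest adjusted p being 0.396, and 848 had an unadjusted p under 0.05 (4.01%). The alternatives on recovered reads differed for all genes: DESeq2 called 28 genes lower and 1 higher with the mimics and edgeR's exact test 28 and 2, with 0 complement genes among them. All 9 complement genes had a fold change below 0, as did 49.2% of all genes tested, and their median log2 fold change was -0.11 (all genes, 0.00). The 9 are not independent, since the C1q chains moved together over the hearts (Pearson's r of 0.92 to 0.99), and Cfb had only 2 to 4 reads per heart. The groups overlapped in all 9, where 9.2% of all genes tested had groups that did not overlap. In an exact two-sided permutation test over the 6 hearts, p for the single genes lay between 0.4 and 0.7, and 0.1 is the smallest that 3 hearts against 3 allow.

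**Figure D1:**
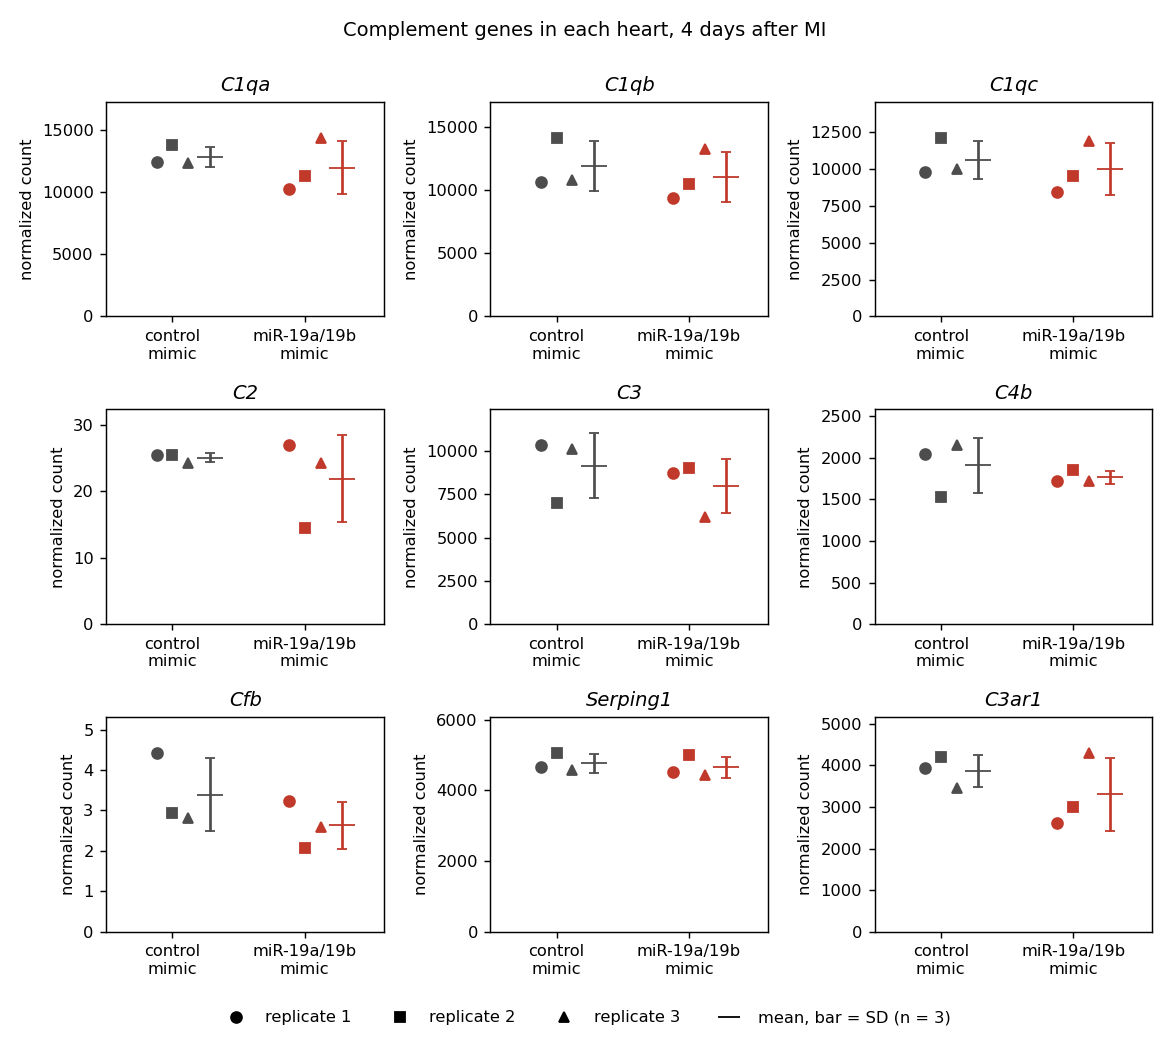
Normalized count (y axis, from 0) of each complement gene in the 3 control mimic hearts (grey) and the 3 miR-19a/19b mimic hearts (red), with the mean and SD beside them. In every panel the groups overlap, and C1qa, C1qb, C1qc and C3ar1 are highest in their group in control mimic replicate 2 and miR-19a/19b mimic replicate 3, where C3 is lowest.

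Per kb, the chains of C1q were the highest of the pathway after clusterin. C1qa, which encodes the A chain (chr4:136895917-136898803, minus strand), had normalized counts of 12395, 13768 and 12383 in control mimic replicates 1, 2 and 3 and of 10243, 11296 and 14390 in the miR-19a/19b mimic hearts. C1qb, for the B chain (chr4:136880129-136886187), had 10637, 14143 and 10805 in the control mimic hearts against 9380, 10443 and 13225. C1qc, for the C chain (chr4:136889804-136893065), had 9773, 12109 and 9968 against 8446, 9543 and 11913. The 3 genes lie side by side on the same strand of chromosome 4. All 3 had their highest control value in replicate 2 and their highest value with the miR-19a/19b mimics in replicate 3, and these hearts overlapped. The log2 fold changes were -0.11 ± 0.16 (SE) for C1qa, -0.11 ± 0.18 for C1qb and -0.10 ± 0.16 for C1qc, n = 3 hearts per group. The 95% intervals ran from -28.0% to 18.5% for C1qa, from -29.9% to 22.5% for C1qb and from -27.9% to 20.9% for C1qc. Changes within these bounds were not excluded.

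The chains kept a narrow ratio to each other across hearts. C1qc made up 29.8% to 30.5% of the summed counts of the chains in the 6 hearts. C1qa made up 34.4% in control mimic replicate 2 and 36.1% to 37.8% in the other hearts. C1qb made up 35.3% in that heart and 32.4% to 33.5% elsewhere. These shares compare hearts, not chains, since the genes differ in length. The sum itself ranged from 28068 in miR-19a/19b mimic replicate 1 to 40021 in control mimic replicate 2, a ratio of 1.43.

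Promoters of 2 of the chains were in the RefSeq table, and they are printed because the chains moved together from heart to heart. Each runs from 250 bases before to 50 bases after the RefSeq start of the gene in GRCm38.p6, C1qb at chr4:136886151-136886450 and C1qc at chr4:136892865-136893164, both on the minus strand. The RefSeq start lies 13 bases upstream of the outer end of the gene given above for C1qb and 151 bases downstream of it for C1qc. Capitals mark the motif GAGGAA, part of the sequence bound by PU.1, a transcription factor of macrophages and B cells, searched on both strands.
C1qb promoter: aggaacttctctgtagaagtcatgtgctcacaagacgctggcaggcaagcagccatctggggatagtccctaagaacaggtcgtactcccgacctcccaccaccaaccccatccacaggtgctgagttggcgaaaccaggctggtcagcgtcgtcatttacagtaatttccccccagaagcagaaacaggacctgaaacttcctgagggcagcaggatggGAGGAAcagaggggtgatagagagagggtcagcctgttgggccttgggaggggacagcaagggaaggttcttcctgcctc
C1qc promoter: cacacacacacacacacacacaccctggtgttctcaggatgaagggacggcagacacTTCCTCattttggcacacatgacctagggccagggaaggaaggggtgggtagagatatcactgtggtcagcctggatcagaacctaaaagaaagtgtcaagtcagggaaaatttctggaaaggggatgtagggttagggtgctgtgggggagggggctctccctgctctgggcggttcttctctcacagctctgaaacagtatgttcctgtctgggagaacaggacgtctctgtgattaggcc
The first base of the motif was at -30 from the RefSeq start in C1qb, and its reverse complement, TTCCTC, began at -193 in C1qc. It was in 28.3% of 32851 promoters of this length, so a match is common and is no sign of a binding site.

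C3, the protein on which the pathways converge (chr17:57203970-57228136, minus strand), had normalized counts of 10326, 6986 and 10109 in the control mimic hearts and of 8734, 9016 and 6211 with the miR-19a/19b mimics. Its lowest hearts, control mimic replicate 2 and miR-19a/19b mimic replicate 3, were those in which C1q was highest. The log2 fold change was -0.19 ± 0.20 (SE), with a 95% interval from -36.2% to 20.1%. Summed C1q counts over C3 counts were 3.18, 5.73 and 3.28 in the control mimic hearts and 3.21, 3.47 and 6.36 in the miR-19a/19b mimic hearts. The ratio thus differed more within each group than between the group means of 4.06 ± 1.44 and 4.35 ± 1.75 (SD, n = 3; exact permutation p = 0.6, 0.9 after adjustment over the 4 ratios compared). Without those 2 hearts, the 4 others lay between 3.18 and 3.47.

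The promoter of C3 is printed for comparison with those of the C1q chains (chr17:57228087-57228386, minus strand, same window). Capitals mark the motif TTGCNNAA, a form of the site bound by C/EBP factors, which are known to drive acute phase genes.
C3 promoter: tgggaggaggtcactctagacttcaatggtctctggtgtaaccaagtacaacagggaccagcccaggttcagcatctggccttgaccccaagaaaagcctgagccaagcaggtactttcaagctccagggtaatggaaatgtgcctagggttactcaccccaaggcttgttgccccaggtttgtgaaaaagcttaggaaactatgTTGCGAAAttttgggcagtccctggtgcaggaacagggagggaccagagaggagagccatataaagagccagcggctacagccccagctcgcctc
The motif began at -45 from the start of C3 and was in 10.8% of all promoters of this length. GAGGAA was not in the windows of C3 or C3ar1, and TTGCNNAA was not in those of C1qb, C1qc or C3ar1. Matches to GAAANNGAAA, a form of the element bound by interferon-activated factors (3.44% of promoters), and to TTCNNNGAA, a form of the STAT site (8.30%), were not in the windows of C1qb, C1qc, C3 or C3ar1.

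C4b, whose product is cleaved ahead of C3 in the classical pathway (chr17:34728380-34743882, minus strand), had normalized counts of 2046, 1532 and 2148 in the control mimic hearts and of 1720, 1855 and 1714 with the miR-19a/19b mimics. The lowest heart was control mimic replicate 2, as for C3 within that group, and the 3 hearts with the miR-19a/19b mimics lay inside the range of the controls. The log2 fold change was -0.10 ± 0.14 (SE). C4b is 95.965% identical to its copy C4a over 5378 bases, so reads could be split between them. C4a was counted at 15.5 to 35.4.

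C2, the protease partner of C4b (chr17:34862604-34898265, minus strand), was counted at 25.4, 25.4 and 24.3 in the control mimic hearts and at 26.9, 14.4 and 24.2 with the miR-19a/19b mimics. The low value of miR-19a/19b mimic replicate 2 rests on 14 reads, and the other hearts had 23 to 28. The log2 fold change was -0.23 ± 0.30 (SE), and without that heart it was 0.03. Cfb, which encodes factor B (chr17:34856374-34862518, minus strand), had 4, 3 and 3 reads in the control mimic hearts and 3, 2 and 3 with the miR-19a/19b mimics. A count of 0 would allow 3 reads, so Cfb was within 1 read of this limit in all hearts and no fold change of it is read.

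The counts of C2 and Cfb are limited by another gene. Gm20547, a readthrough gene on the same strand, shares 79.5% of the exon bases of Cfb (2246 of 2825) and 42.8% of those of C2 (1656 of 3872). How reads in shared exons were assigned is not given in the sources used here, and Gm20547 was not analysed here. A count can therefore understate both genes, and the low level of Cfb is not a measure of its full transcription. In addition, 4.16% of the exon bases of C2 overlap Zbtb12 on the other strand. The exons of the other 7 genes overlap no other annotated gene.

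**Figure D2:**
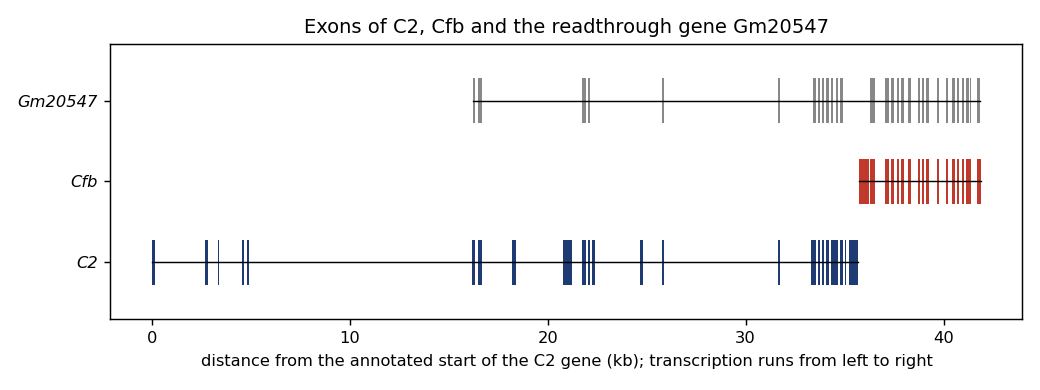
Annotated exons (boxes) of C2, Cfb and Gm20547 by distance in kb from the start of the C2 gene, drawn to scale. Gm20547 follows exons of C2 and then those of Cfb, with 42.8% of the exon bases of C2 and 79.5% of those of Cfb in common.

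Serping1, the gene of C1 inhibitor (chr2:84765387-84775444, minus strand), was the steadiest of the 9. Its normalized counts were 4655, 5062 and 4576 in the control mimic hearts and 4530, 5003 and 4432 with the miR-19a/19b mimics, a ratio of 1.14 between the highest and the lowest heart. The log2 fold change was -0.03 ± 0.11 (SE), and the 95% interval ran from -17.6% to 15.7%, the narrowest among the 9. C3ar1, the C3a receptor (chr6:122847138-122856161, minus strand), varied more, by a ratio of 1.64. It had 3934, 4212 and 3460 in the control mimic hearts and 2618, 3003 and 4301 with the miR-19a/19b mimics. Replicates 1 and 2 of the miR-19a/19b mimic hearts lay below all 3 controls, and replicate 3 lay above them. The log2 fold change was -0.25 ± 0.18 (SE), with a 95% interval from -36.8% to 11.3%.

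Per kb of exon, the order of the mean levels over the 6 hearts was C1qa (11935), C1qb (10514), C1qc (5330), Serping1 (2026), C3 (1665), C3ar1 (833), C4b (322), C2 (6.05) and Cfb (1.06), in normalized counts per kb. The C1q chains thus stood above 99.1% of all tested genes or more, Serping1 above 97.4%, C3 above 96.9%, C3ar1 above 93.6% and C4b above 83.2%, while C2 stood above 25.4% and Cfb above 7.1%. The ranges over hearts of C1qa (9849 to 13837) and C1qb (8621 to 12999) overlapped, as did those of Serping1 (1906 to 2177) and C3 (1208 to 2008). Other neighbours in the order did not overlap. C1qc depends on the length used: with its longest coding transcript (1203 bases) in place of all its exons (1931), it had 7021 to 10066 per kb and overlapped C1qb. If no read in exons shared with Gm20547 was counted, C2 and Cfb would be at 10.6 and 5.19 per kb of unshared exon. Whether such reads were counted is not known.

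**Figure D3:**
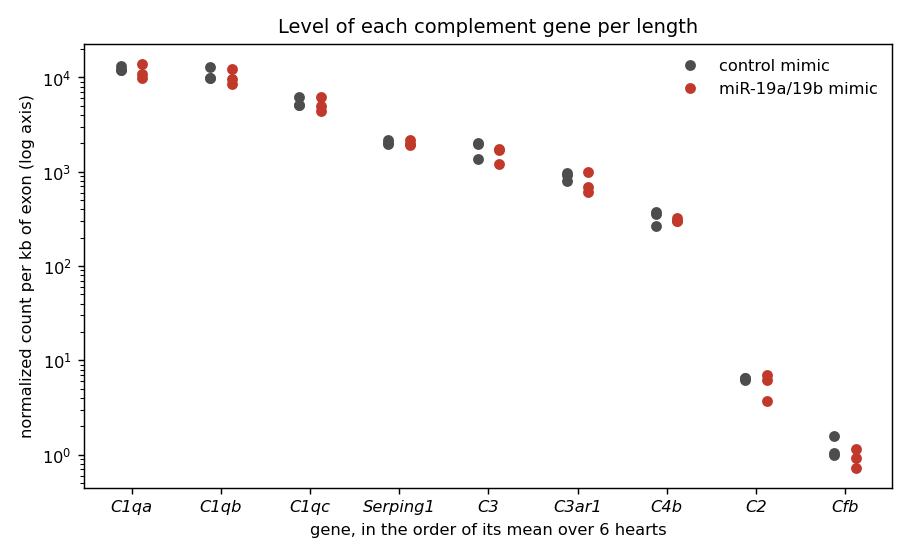
Normalized count per kb of exon (log axis) of each complement gene in the 6 hearts, grey for control mimic and red for miR-19a/19b mimic. The genes span from about 1.06 for Cfb to 11935 for C1qa, and the groups lie over each other within each gene.

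The genes of C1q and C3ar1 were next set beside marker genes of cell types. The summed counts of 14 macrophage markers were 78606, 92099 and 81781 in the control mimic hearts and 62592, 72790 and 96708 with the miR-19a/19b mimics. The highest heart of each group was thus the one with the highest C1q. Lyz2 alone held 41757 and 48248 of the counts in those hearts, and not every marker followed the sum. Cd163, at 579 and 972, and Lyve1 (named after its values were seen), at 257 and 320, were lowest of their group in them. Over the list, 10 of 14 markers had a fold change below 0, 1 was lower with an unadjusted p under 0.05 (Ctss, a lysosomal protease, log2 fold change -0.44) and 1 higher (Cd163, a scavenger receptor, 0.61), and the median was -0.15. Of all genes tested, 2.63% were lower and 1.39% higher by that p. Without miR-19a/19b mimic replicate 3, 8 of the 14 markers were lower and 2 higher, with a median of -0.31, where 6.08% of all genes were lower and 8.39% higher. That heart had the highest macrophage sum, so leaving it out in itself lowers its group, and this count is no independent result. Relative to Csf1r, the receptor that macrophages need for survival, C3ar1 was 0.605 ± 0.071 in the control mimic and 0.608 ± 0.059 in the miR-19a/19b mimic hearts (SD, n = 3; exact permutation p = 0.9). Summed C1q over Csf1r was 5.68, 5.66 and 5.17 in the control mimic hearts and 5.79, 6.59 and 5.98 with the miR-19a/19b mimics. These groups did not overlap, with an exact permutation p of 0.1, the smallest possible, and 0.4 after adjustment over 4 ratios, which were chosen after values had been seen. Csf1r itself had a log2 fold change of -0.26, and 4 of the 14 markers were above 0, so both ratios depend on the marker chosen. Ratios to the other markers were not computed. Whether the number of macrophages differed between the hearts was not tested.

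C3 was lowest in the heart with the fewest cardiomyocyte reads of each group. The sums of the cardiomyocyte markers were 633285, 544529 and 696758 in the control mimic hearts, and of the 10 markers 0 had an unadjusted p under 0.05 (median log2 fold change 0.12). Fibroblast markers summed to 611127 to 755356 in the control mimic and 520066 to 819268 in the miR-19a/19b mimic hearts (0 of 10 with an unadjusted p under 0.05, median -0.02), and endothelial markers to 32974 to 45473 and 37923 to 44264 (0 of 8, median 0.01). Of the 10 cardiomyocyte markers, 8 were higher by the unadjusted p (median 0.58) when miR-19a/19b mimic replicate 3 was left out, where 8.39% of all genes were. That heart was set apart by its low sum of these same markers, so this count follows from the choice and is no result. The part of the cardiomyocyte markers in the level of C3 was not tested. Of 6 hepatocyte markers, 4 were in the table, Alb, the defining one (named after its values were seen), was at 0 in all 6 hearts, and their sum was 2.80 to 17.6, so C3 at 6211 or more was counted with next to no liver transcripts.

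**Figure D4:**
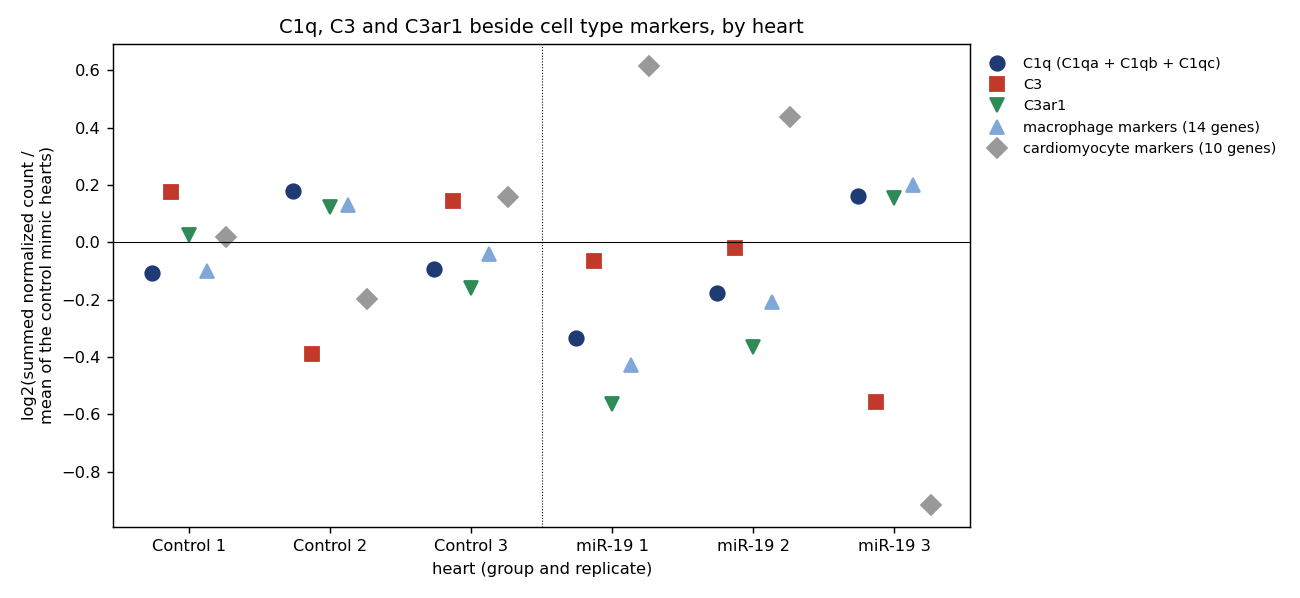
Log2 of the summed normalized count in each heart over the mean of the control mimic hearts, for C1q (3 chains), C3, C3ar1, 14 macrophage markers and 10 cardiomyocyte markers. C1q, C3ar1 and the sum of the macrophage markers are above 0 in control mimic replicate 2 and miR-19a/19b mimic replicate 3. There C3 and the sum of the cardiomyocyte markers are below 0.

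Without miR-19a/19b mimic replicate 3, the heart with the fewest cardiomyocyte reads, C3ar1 was lower by a log2 fold change of -0.46 ± 0.11 (SE; 3869 in 3 control mimic hearts against 2810 in 2), with a limma adjusted p of 0.052. In that heart C3ar1 and the C1q chains were highest of their group, so leaving it out works toward lower values of these genes. The log2 fold change of C1qa was -0.25 ± 0.11 (SE), with 0.043 as limma's unadjusted p-value, and those of C1qb and C1qc were -0.25 ± 0.14 and -0.24 ± 0.12. C3 was then at -0.02, C4b at -0.08, C2 at -0.33 ± 0.35 (SE) and Serping1 at 0.00. The count of complement genes with an unadjusted p under 0.05 rose from 0 to 2 of 9, where 14.5% of all genes tested had one. Groups did not overlap for C1qa, C1qb, C1qc and C3ar1, 4 of 9, against 31.4% of all genes tested with 3 hearts against 2. No complement gene had an adjusted p under 0.05 (2.58% of all genes did, 164 lower and 383 higher). Csf1r had a log2 fold change of -0.42 in the same comparison (4799 against 6424). Of the hearts kept, miR-19a/19b mimic replicate 1 had the lowest C3ar1 (2618) and the highest sum of skeletal muscle markers (2658). The part of these transcripts in the comparison was not tested.

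The other genes of the pathway were taken from lists by role, 43 genes in all, of which 38 were in the table and 33 were tested. Of these, 0 had an adjusted p under 0.05, 1 was lower with an unadjusted p under 0.05 and 0 were higher, and 19 of 33 had a fold change below 0 (median -0.05). The gene was C5ar2, a second receptor of the fragment C5a. It was counted at 229, 264 and 216 in the control mimic hearts and at 168, 166 and 218 with the miR-19a/19b mimics, a log2 fold change of -0.37 ± 0.15 (SE; unadjusted p = 0.042). Replicates 1 and 2 of the miR-19a/19b mimic hearts lay below all controls, and replicate 3 lay within their range. With DESeq2, both edgeR tests, limma-voom or the replicate number as a block, 0 genes of these lists had an unadjusted p under 0.05. Over all genes, 2.63% were lower and 1.39% higher by limma's unadjusted p. With miR-19a/19b mimic replicate 3 left out, 6 of the 33 were lower and 3 higher by that p (median -0.08), where 6.08% of all genes were lower and 8.39% higher.

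Among 10 tested genes of recognition and proteolysis, the highest per kb were Cfp, for properdin, which stabilises the alternative convertase (1528 per kb, log2 fold change -0.03), C1s1, a protease of the C1 complex (279, -0.05), with Gm16567 on the other strand of 18.4% of its exon bases, and Colec11, a soluble lectin (244, -0.07). C1ra, the other protease of C1, was the only gene of the 33 whose groups did not overlap (9.2% of all genes tested), at 664 to 720 in the control mimic and 647 to 658 in the miR-19a/19b mimic hearts, with a log2 fold change of -0.08 ± 0.09 (SE; unadjusted p = 0.42). It is named for this after its values were seen. C1rb, C1s2, Colec10 and Mbl2 were below the filter, and Mbl1 was not analysed here. The median of the list was -0.06, and -0.16 without miR-19a/19b mimic replicate 3.

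Of the terminal components, which build the membrane attack complex, 4 were tested. C7 (65.8 per kb, log2 fold change 0.44), C8g (34.9, 0.15) and Hc, the gene of C5 (0.99, -1.07 ± 0.64 SE, unadjusted p = 0.13), led by level. Hc was counted at 5.86 to 10.3 in the control mimic hearts and at 1.08, 2.06 and 10.4 with the miR-19a/19b mimics, so its value rests on few reads. C6, named after its values were seen, was at 0.98 to 1.87 against 5.38, 7.22 and 1.73, with a log2 fold change of 1.19 ± 0.56 (SE; unadjusted p = 0.062). Transcripts of the terminal pathway were thus scarce next to those of C1q and C3. When miR-19a/19b mimic replicate 3 was left out, the log2 fold change was 1.13 for C7, -1.80 for Hc and 1.66 for C6. Each had an unadjusted p under 0.05 by limma, 1 of 4 tested lower and 2 higher, and none an adjusted p under 0.05. Of all genes, 6.08% were lower and 8.39% higher by the unadjusted p. The values of C6 and Hc rest on few reads, and the median of the list was 0.68 in place of 0.29. C9 was below the filter, and C8a and C8b were not analysed here.

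Regulators held the most abundant transcript of the pathway. Clu, for clusterin, which binds terminal complexes, was counted at 83680, 66026 and 79805 in the control mimic hearts and at 73984, 55659 and 43034 with the miR-19a/19b mimics (19497 per kb). The groups overlapped, and the log2 fold change was -0.44 ± 0.27 (SE; unadjusted p = 0.14). Cd59a, a membrane inhibitor of the terminal complex (504 per kb), had a log2 fold change of 0.11. Over 11 tested regulators, 0 had an unadjusted p under 0.05 and the median was -0.05. With 2 miR-19a/19b mimic hearts, replicate 3 left out, the log2 fold change of Clu was -0.25, that of Cd59a 0.42 with an unadjusted p of 0.0060 (adjusted p 0.11, limma), and the median turned to 0.06. C4bp and Cd55b were not analysed here.

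Of 8 receptors, Itgb2, the shared chain of complement receptors 3 and 4 (1091 per kb, log2 fold change -0.15), Cd93 (1059, -0.09) and C5ar1, the main C5a receptor (1021, 0.06), were highest per kb. The median of the list was -0.12, and -0.29 without miR-19a/19b mimic replicate 3. Itgb2 was at 3458, 3398 and 3493 in the control mimic hearts and at 2531, 2768 and 4328 with the miR-19a/19b mimics, so that replicate 3 of the latter lay above all other hearts, as for C3ar1. Without that heart, Itgb2 was lower, with a log2 fold change of -0.38 and a limma adjusted p of 0.0498. Leaving out its highest heart works toward this difference, so this p is no independent support. Itgb2 was the only gene of the 4 lists that passed, 1 of 33 tested, where 2.58% of all genes tested passed. C5ar2 was at -0.49 in that comparison. Itgam, another chain of complement receptor 3, had a log2 fold change of -0.16 (-0.37 without that heart, as against -0.21 for Cd93) and shares 68.7% of its exon bases with Gm49368, so its count is uncertain. It is named for this overlap, outside the rule for named genes.

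**Figure D5:**
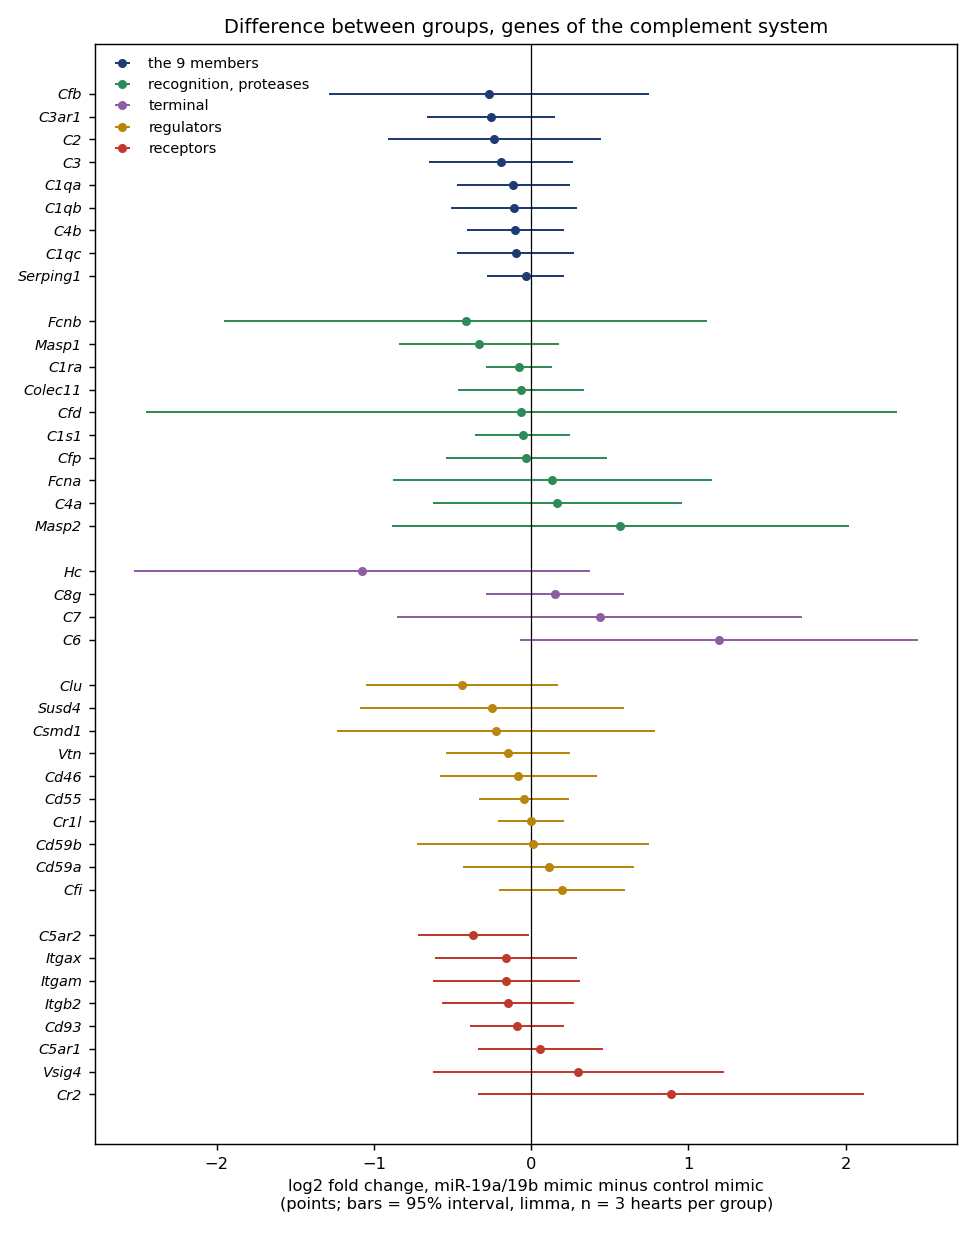
Log2 fold change (x axis, miR-19a/19b mimic minus control mimic) with its 95% interval from limma for the 9 complement genes and 32 other genes of the pathway, grouped by role. C5ar2 is the only gene whose interval does not reach 0, and Cfb rests on 2 to 4 reads per heart.

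Interferon-induced genes are set beside the complement genes because C2, C4b, Cfb and Serping1 are known to be induced by interferon in several cell types. Of 20 such genes, 17 were lower with the miR-19a/19b mimics with an unadjusted p under 0.05 and 0 with an adjusted p under 0.05, with a median log2 fold change of -0.57, and their summed counts were 60956 to 73138 in the control mimic and 43061 to 53976 in the miR-19a/19b mimic hearts. Monocyte markers were lower in 3 of 6 (median -0.44) and T cell markers in 3 of 8 (-0.61), again by the unadjusted p, with 1 of 8 neutrophil markers (-0.39), where 2.63% of all genes tested were lower. Without miR-19a/19b mimic replicate 3, lower genes were 20 of 20 for interferon (median -0.61), 5 of 6 for monocytes, 3 of 8 for T cells and 6 of 8 for neutrophils, against 6.08% of all genes. The difference between these lists and the complement genes was not tested. In miR-19a/19b mimic replicate 1, the summed skeletal muscle markers were 2658, against 39.2 to 76.9 in the other hearts, and their part in the values of that heart was not tested.

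For each complement gene, the genes with the most similar profile over the 6 hearts were sought among 11602 other genes with a mean of at least 100, by Pearson's r of log2 counts. With 6 hearts, the best of so many genes has a high r for any profile, so these are descriptions without a test. C1qa was nearest to Cyp4v3, Tspan14 and Cd48 (r of 0.995 to 0.997), C1qb to Adam17, Vcam1 and Ece2 (0.992 to 0.995), and C1qc to Blnk, Adam17 and Cd84 (0.995 to 0.996). C3ar1 was nearest to Tor4a, Etaa1 and Tlr1 (0.997 to 0.9997). C3 was nearest to Tspan12, Bpgm and Hba-a1 (0.991 to 0.995), with none in common with the C1q chains. C4b was nearest to Wars, Ccdc149 and Tab3 (0.969 to 0.972), and Serping1 to Trp53rka, Ddx50 and Polr2b (0.972 to 0.990). For C2, near Acaca, Sp2 and Gli2 (0.969 to 0.984), r fell to between -0.27 and 0.47 without the 2 hearts farthest from the median, and for Cfb, near Rhbdd1, Wipf2 and Ddx54 (0.945 to 0.949), to between -0.14 and 0.79.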

How the data were processed

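Poly(A) RNA of 6 mouse ventricles was sequenced. The submitters' processing notes name STAR 2.5.1b, HTSeq 0.6.0 and DESeq2 1.10.1. They list mm9 as the build, while the coordinates of all 9 genes equal those of GENCODE M21 (GRCm38), as used here. The authors deposited a normalized signal, each gene's read count divided by a size factor, and 100% of the values were whole reads within 0.01. The authors' own columns of log2 fold changes and p-values, and their table of selected genes, were not used.

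Groups were compared on log2 of the normalized count plus 1 by limma 3.58.1 in R 4.3.3 (eBayes with trend), for genes whose mean was at least 1, with Benjamini-Hochberg adjustment over all genes tested, a call being an adjusted p under 0.05. Fold changes on this scale understate those of low genes. Recovered reads were tested with DESeq2 1.42.0 and edgeR 4.0.16. Near copies were sought with BLASTN 2.17.0. The statistics were tested on simulated data.

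The 9 genes and all lists were chosen with earlier results of these data known. In each pathway list, the 3 genes highest per kb and those with an unadjusted p under 0.05 are named, apart from 1 item that is not reported here. In each marker list, genes are named only if they are among the 3 with the highest mean normalized count or have such a p, apart from Alb and Lyve1.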

Additional observations from a re-analysis of the deposited data

How the results depend on the processing

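Over 9 other tests, scalings, filters and a replicate block, the 80 log2 fold changes of the complement genes (Cfb lacks one with a mean of at least 10) kept their direction, and none had an adjusted p under 0.05, the smallest being 0.987 (DESeq2 gives none for Cfb). Leaving out 1 heart turned 5 of 54 values, each near 0 and none past the threshold. C1qb ranged from -0.25 to 0.024 and Serping1 from -0.087 to 0.010, both positive without control mimic replicate 2, and Serping1 was also at 0.00 (0.000248) without miR-19a/19b mimic replicate 3. C1qc ranged from -0.24 to 0.013 (positive without miR-19a/19b mimic replicate 1) and C2 from -0.40 to 0.027 (positive without replicate 2 of that group). C1qa ranged from -0.25 to -0.01, C3 from -0.37 to -0.02, C4b from -0.25 to -0.01 and C3ar1 from -0.46 to -0.10. The cause was not tested.

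Genes called among all genes were 0 with limma, limma-voom and edgeR's quasi-likelihood test, 28 lower and 1 higher with DESeq2 and 28 and 2 with edgeR's exact test. With 1 heart left out, they ran from 0 to 164 lower and from 0 to 383 higher, above 0 only without miR-19a/19b mimic replicate 3. Calls in the complement lists then ran from 0 to 1 lower, and in the marker and interferon lists from 0 to 17 lower and 0 to 5 higher. DESeq2 and the exact test called 4 genes of the latter lists lower. With a mean of at least 500, 16 of the 27 genes nearest in profile were kept, since the rest lie under that mean. The order of levels per kb and the 0 seed matches did not change with coding transcripts.

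The replicate numbers are not known to pair the hearts. Deviations of hearts with the same number correlated at 0.06, -0.34 and -0.45 over 11609 genes. With the number as a block, 0 genes were called, and genes with an unadjusted p under 0.05 were 434 lower (555 without) and 207 higher (293 without). The block changed no call of a complement gene. At 2 to 4 reads per heart, depth limits Cfb, and at 14 to 28 reads C2.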
